A study of Rattus norvegicus with 9 samples.

Results

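The genes described here are 10 rat liver genes of bile acid synthesis and its feedback control, picked by symbol from 40154 gene rows. They are the enzymes Cyp7a1, Cyp8b1, Cyp27a1, Cyp7b1, Hsd3b7 and Akr1d1, the conjugating pair Slc27a5 and Baat, the bile acid receptor FXR (Nr1h4) and the repressor SHP (Nr0b2). All 10 were found and all 10 passed the filter on low values. The set was proposed with 1 measured result in view, that Cyp7a1 was higher in both cirrhotic groups than in normal livers. Values of the 10 genes set against the normal livers are therefore a description, and nothing is read from how many of them met the call rule there. The comparison of HepLPC with PBS livers, which that choice did not use, was tested.

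Whole-liver RNA of wild type Sprague-Dawley rats, aged 5 months per the labels, was sequenced in 9 libraries, 3 in each of 3 groups. HepLPC livers came from rats with cirrhosis injected with HepLPCs, hepatocyte-derived liver progenitor-like cells of the rat. For PBS livers the cirrhotic rats had received an injection of phosphate-buffered saline instead. Normal livers had received neither the hepatotoxin CCl4 nor a cell transplant and are labelled as untreated, so injury and injection cannot be told apart in a comparison with them. The labels give no sex, time of day, feeding state or interval after injection, and the dose and duration of CCl4 are not given in the sources used here. Nor do the labels say that the 3 replicates of a group are different animals. All p-values thus reflect only the spread among these libraries, which may be technical.

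Bile acids are made from cholesterol in hepatocytes by a classical pathway, which begins with 7-alpha-hydroxylation of cholesterol, and an alternative pathway, which begins with oxidation of the side chain. The products are joined to taurine or glycine, secreted into bile and returned from the gut. Bile acids activate FXR in the liver, FXR raises SHP, and SHP represses the first enzymes, while a gut hormone acting through the receptor Fgfr4 and its partner Klb does the same from the ileum. The pathway also follows feeding and the daily clock.

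The libraries held 17.4 to 21.8 M reads (M for 1e6), worked out from the steps of the RPKM values (reads per kilobase of gene model and M reads). Each of the 10 genes had between 77 and 86201 reads in every library. Hepatocyte genes were present throughout: the summed RPKM of 10 hepatocyte markers was 92600 to 105000 in HepLPC, 84000 to 93400 in PBS and 89600 to 108000 in normal livers. None of these 10 hepatocyte markers was called in any comparison (0 by limma and by voom in each). At an unadjusted p under 0.05 there were 1, 1 and 0 for PBS against normal, HepLPC against PBS and HepLPC against normal. The shares of all genes at that limit were 27.3%, 16.1% and 9.31%. Of 7 tested bile duct markers 7 rose in PBS against normal livers (7 by voom), beside 10.4% of all genes. In HepLPC against PBS livers 7 fell (5 by voom), beside 2.93% of all genes. The sum of all 8 was 10.5 to 20.3 RPKM in HepLPC, 51.6 to 181 in PBS and 8.91 to 10.6 in normal livers. Stellate cell markers summed to 53.4 to 73.9 RPKM in HepLPC, 87.9 to 142 in PBS and 30.5 to 32.8 in normal livers. Of these 8, 6 were called higher in PBS against normal (6 by voom), beside 10.4% of all genes. In HepLPC against PBS 2 were called lower (1 by voom), beside 2.93%. Macrophage markers summed to 154 to 222, 261 to 364 and 135 to 178 RPKM in the same order. Of these 8, 1 was called in each of these comparisons, Lyz2, beside the same shares. Lyz2 averaged 20.1 ± 1.99, 109 ± 55.3 and 17.6 ± 2.13 RPKM in HepLPC, PBS and normal livers (SD, n = 3 each). It makes up a large part of the difference between these sums. Endothelial markers (6) summed to 57.0 to 67.6 RPKM in HepLPC, 65.4 to 81.4 in PBS and 62.6 to 68.6 in normal livers, and 7 ileum and kidney markers to 3.06 to 7.45, 7.96 to 12.6 and 2.83 to 7.27 RPKM. No listed marker was at 0 in every library, and the part of these other cells in the values of the 10 genes was not tested. PBS replicate 1 and HepLPC replicate 2 stood apart, in that their deviations from the group mean fell with gene length across 11124 genes (Spearman correlation -0.564 and -0.528, against -0.157 to 0.423 in the other 7 libraries; genes are not independent replicates). Some differences of the 10 genes are also given without both of these libraries, and those of the other genes named are not. In bulk tissue, fewer cells of a type and less RNA per cell cannot be told apart.

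Cyp7a1, the rate-limiting 7-alpha-hydroxylase of the classical pathway, was the gene the choice rested on. Its level was 85.6, 70.0 and 40.8 RPKM in HepLPC replicates 1 to 3, 105, 24.0 and 50.3 RPKM in PBS replicates 1 to 3, and 5.00, 16.8 and 12.8 RPKM in normal replicates 1 to 3. All 6 libraries from cirrhotic rats lay above the 3 normal ones, and the nearest were PBS replicate 2 at 24.0 and normal replicate 2 at 16.8 RPKM. The group means were 65.5 ± 22.8 RPKM in HepLPC, 59.9 ± 41.5 RPKM in PBS and 11.6 ± 6.02 RPKM in normal livers (SD, n = 3 each). On the log2(RPKM + 1) scale used for every fold change here, PBS livers differed from normal ones by 2.18 (SE 0.55) and HepLPC livers from normal ones by 2.48 (SE 0.55). Without PBS replicate 1 and HepLPC replicate 2 these differences were 1.65 and 2.40.

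**Figure D1:**
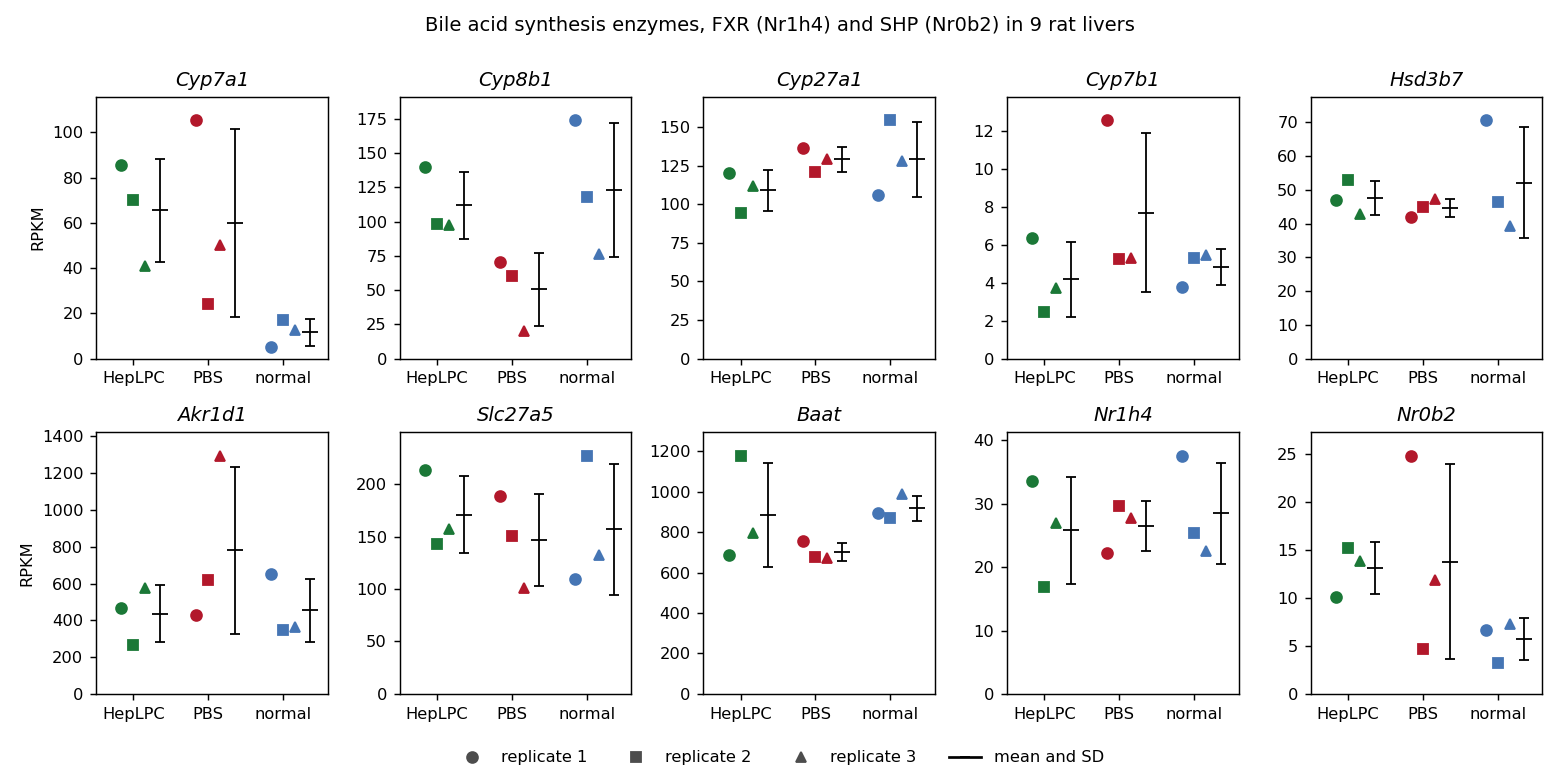
RPKM (vertical axes, each from 0) of the 10 genes in HepLPC, PBS and normal livers. Coloured points are libraries, with the marker giving the replicate, and black bars are the mean and SD of 3 libraries. Cyp7a1 lay between 24.0 and 105 RPKM in the 6 libraries from cirrhotic rats and between 5.00 and 16.8 RPKM in normal livers, while Cyp8b1 was lowest in the PBS livers.

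The spread of Cyp7a1 inside a group was wide. Its residual SD over the 3 groups was 0.83 on the log2 scale, larger than for 99.0% of the 11124 genes tested, where the median was 0.22. Cyp7a1 did not differ between HepLPC and PBS livers beyond that spread (log2 fold change 0.30, 95% interval -0.93 to 1.54, limma adjusted p = 0.795). The interval spans differences in either direction. The difference was -0.22 without PBS replicate 2 and 0.83 without PBS replicate 1, the lowest and highest values when single libraries were left out.

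Cyp8b1, the sterol 12-alpha-hydroxylase that sets how much cholic acid the classical pathway makes, followed another order. Its level was 140, 98.6 and 97.5 RPKM in HepLPC replicates 1 to 3, 70.7, 60.6 and 20.3 RPKM in PBS replicates 1 to 3, and 174, 118 and 76.7 RPKM in normal replicates 1 to 3. Every HepLPC library and every normal library lay above every PBS library, with PBS replicate 1 at 70.7 and normal replicate 3 at 76.7 RPKM the nearest. The means were 112 ± 24.4 RPKM in HepLPC, 50.5 ± 26.7 RPKM in PBS and 123 ± 48.8 RPKM in normal livers (SD, n = 3 each). HepLPC livers exceeded PBS livers by 1.29 (SE 0.45, 95% interval 0.29 to 2.30), which did not pass after adjustment over all genes (limma adjusted p = 0.181, unadjusted p = 0.0168). Over the 17 alternative analyses this difference ranged from 0.75, without PBS replicate 3, to 1.71, without both libraries that stood apart, and the adjusted p from 0.0684 to 0.471. PBS livers differed from normal ones by -1.37 (SE 0.45), and HepLPC livers from normal ones by -0.08 (SE 0.45). Without both libraries that stood apart these 2 differences were -1.70 and 0.01.

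The ratio of Cyp8b1 to Cyp7a1, both per length, sets the 2 hydroxylases side by side in each liver. It was 1.64, 1.41 and 2.39 in HepLPC replicates 1 to 3, 0.672, 2.52 and 0.403 in PBS replicates 1 to 3, and 34.8, 7.03 and 5.99 in normal replicates 1 to 3. Cyp8b1 was the more abundant transcript in all normal and HepLPC libraries, and Cyp7a1 in PBS replicates 1 and 3. The ratio was computed after both genes had been seen, uses the contrast behind the choice and was not tested.

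**Figure D2:**
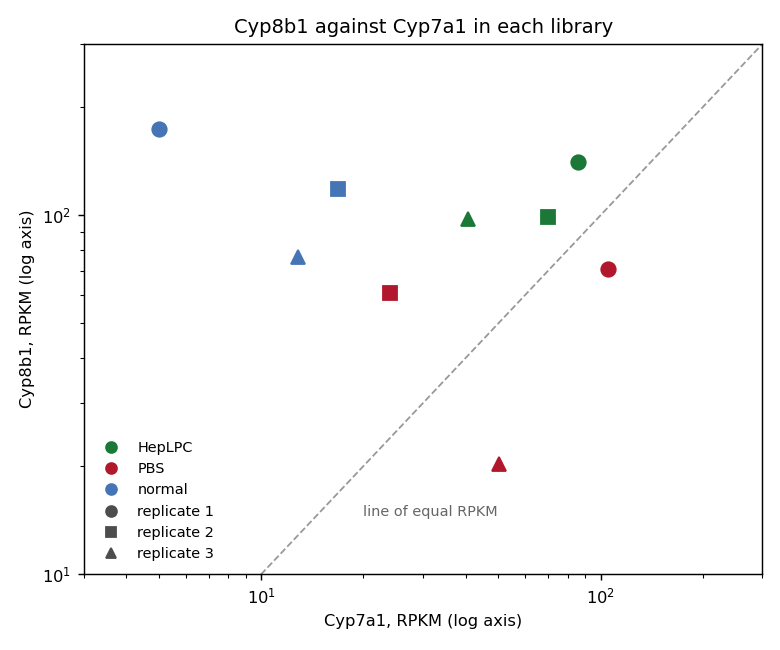
Cyp8b1 (vertical log axis, RPKM) against Cyp7a1 (horizontal log axis, RPKM) in the 9 libraries, with colour for group, marker for replicate and a dashed line where both are equal. Normal libraries lie far above the line, with ratios of 5.99 to 34.8, HepLPC libraries just above it, with 1.41 to 2.39, and PBS replicates 1 and 3 below it, at 0.672 and 0.403. PBS replicate 2 lies above the line at 2.52, higher than every HepLPC library, so these groups overlap.

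The promoters of Cyp8b1 and Nr0b2 are shown because the nuclear receptor LRH-1 (Nr5a2), through which SHP acts on bile acid genes, is known to bind both genes. RefSeq promoter windows on GRCr8, from 250 bases before to 50 after the start, matched 6 of the 10 genes by symbol: Cyp8b1, Cyp27a1, Hsd3b7, Slc27a5, Baat and Nr0b2. The build behind the RPKM values is uncertain, so these coordinates are those of RefSeq alone. The 250 bases before the start are given 5′ to 3′ on the gene's strand, at chr8:130457593-130457842 (minus strand) for Cyp8b1 and at chr5:151062910-151063159 (plus strand) for Nr0b2, with motif matches in capitals.
Cyp8b1: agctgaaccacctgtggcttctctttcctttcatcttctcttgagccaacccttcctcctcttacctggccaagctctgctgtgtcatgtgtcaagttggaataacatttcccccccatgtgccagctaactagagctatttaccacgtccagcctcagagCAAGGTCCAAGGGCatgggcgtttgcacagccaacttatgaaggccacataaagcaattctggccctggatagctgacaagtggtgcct
Nr0b2: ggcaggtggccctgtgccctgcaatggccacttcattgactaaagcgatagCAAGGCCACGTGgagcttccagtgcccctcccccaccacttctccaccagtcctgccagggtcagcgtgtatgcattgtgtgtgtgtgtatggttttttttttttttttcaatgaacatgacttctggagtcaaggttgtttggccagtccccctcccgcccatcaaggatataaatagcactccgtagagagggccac

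In both sequences the capitals begin with the LRH-1 core CAAGGNC. Cyp8b1 holds it in 2 adjacent copies, starting 89 and 82 bases before the start of the gene, and Nr0b2 holds 1 copy, 199 bases before the start. In Nr0b2 the core overlaps an E-box, CACGTG, the site of clock and other helix-loop-helix factors, that starts 193 bases before the start. Searched on both strands of 33469 such windows, CAAGGNC was found in 18.6% and CACGTG in 6.42%. The nuclear receptor half-site AGGTCA, present in 16.2% of windows, was found only in Cyp27a1 among the 6 genes, in 2 copies, 1 on the plus strand and 1 on the minus strand, where it overlaps a CAAGGNC core on that same strand. The D-box TTATGTAA (0.893% of windows) and the inverted repeat AGGTCANTGACCT bound by FXR with RXR (0.0269%) matched none of the 6 windows. Such matches are descriptions of letters in these windows.

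Neither enzyme of the alternative pathway passed the test between HepLPC and PBS livers. Cyp27a1, the mitochondrial sterol 27-hydroxylase that opens it and also shortens the side chain of classical products, was at 120.3, 94.1 and 112 RPKM in HepLPC replicates 1 to 3, 136.5, 120.5 and 129 RPKM in PBS replicates 1 to 3, and 106, 154 and 128 RPKM in normal replicates 1 to 3. Every HepLPC library lay below every PBS library by a small margin, 120.3 against 120.5 RPKM at the nearest, and the normal libraries spanned both groups. The difference of HepLPC from PBS livers was -0.25 (95% interval -0.61 to 0.12, limma adjusted p = 0.497). Cyp27a1 was the 1 gene of the 10 with a residual SD, 0.19, below the median of all genes.

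Cyp7b1, the oxysterol 7-alpha-hydroxylase that acts after Cyp27a1, was the gene of lowest level in the set. It was at 6.35, 2.48 and 3.72 RPKM in HepLPC replicates 1 to 3, 12.6, 5.24 and 5.32 RPKM in PBS replicates 1 to 3, and 3.76, 5.29 and 5.46 RPKM in normal replicates 1 to 3. PBS replicate 1 stood above all other libraries and the groups overlapped. HepLPC livers differed from PBS livers by -0.72 (95% interval -1.49 to 0.06, limma adjusted p = 0.349), and by -0.09 without PBS replicate 1 and HepLPC replicate 2. The ratio of Cyp7a1 to Cyp7b1 was 13.5, 28.2 and 11 in HepLPC, 8.37, 4.58 and 9.46 in PBS and 1.33, 3.18 and 2.35 in normal replicates 1 to 3, so the 7-alpha-hydroxylase of the classical pathway was the more abundant in all 9 libraries.

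The enzymes that reshape the sterol rings are shared by both pathways. Hsd3b7, the 3-beta-hydroxysteroid dehydrogenase of bile acid synthesis, averaged 47.6 ± 5.05 RPKM in HepLPC, 44.7 ± 2.70 RPKM in PBS and 52.2 ± 16.4 RPKM in normal livers (SD, n = 3 each), with normal replicate 1 highest at 70.6 RPKM. Akr1d1, the 5-beta-reductase that bends the ring system, was at 468, 268 and 576 RPKM in HepLPC replicates 1 to 3, 430, 621 and 1294 RPKM in PBS replicates 1 to 3, and 650, 346 and 364 RPKM in normal replicates 1 to 3. PBS replicate 3, the library with the lowest Cyp8b1, held by far the highest Akr1d1, and the groups overlapped. HepLPC and PBS livers differed by 0.09 for Hsd3b7 (95% interval -0.36 to 0.53, limma adjusted p = 0.84) and by -0.75 for Akr1d1 (95% interval -1.72 to 0.22, limma adjusted p = 0.441). Without PBS replicate 3 the Akr1d1 difference was -0.31.

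Conjugation enzymes were abundant in every liver. Slc27a5, the bile acyl-CoA synthetase, was at 213, 143 and 157 RPKM in HepLPC replicates 1 to 3, 188, 151 and 101 RPKM in PBS replicates 1 to 3, and 110, 227 and 133 RPKM in normal replicates 1 to 3, with wide overlap. Baat, which joins the activated bile acid to taurine or glycine, was at 684, 1177 and 797 RPKM in HepLPC replicates 1 to 3, 754, 678 and 674 RPKM in PBS replicates 1 to 3, and 893, 871 and 988 RPKM in normal replicates 1 to 3. Each PBS library lay below each normal library for Baat, and HepLPC replicate 2 was the highest of the 9. PBS livers differed from normal ones by -0.38 (SE 0.20), and by -0.44 without PBS replicate 1 and HepLPC replicate 2. HepLPC and PBS livers differed by 0.25 for Slc27a5 (95% interval -0.44 to 0.93, limma adjusted p = 0.708) and by 0.30 for Baat (95% interval -0.14 to 0.74, limma adjusted p = 0.502). Without PBS replicate 1 and HepLPC replicate 2 these differences were 0.57 and 0.13.

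FXR itself, Nr1h4, was at 33.6, 16.9 and 27.0 RPKM in HepLPC replicates 1 to 3, 22.2, 29.7 and 27.7 RPKM in PBS replicates 1 to 3, and 37.6, 25.3 and 22.5 RPKM in normal replicates 1 to 3. The 3 groups overlapped throughout, and HepLPC livers differed from PBS livers by -0.08 (95% interval -0.67 to 0.51, limma adjusted p = 0.892). PBS replicate 1 and HepLPC replicate 2 held the lowest value of their groups.

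SHP, Nr0b2, the repressor that FXR induces, was at 10.1, 15.3 and 13.9 RPKM in HepLPC replicates 1 to 3, 24.8, 4.71 and 11.8 RPKM in PBS replicates 1 to 3, and 6.68, 3.18 and 7.34 RPKM in normal replicates 1 to 3. All HepLPC libraries lay above all normal ones, and the PBS libraries overlapped both. It had from 77 reads, in normal replicate 2, to 492 reads, in PBS replicate 1. Nr0b2 differed by 0.94 (SE 0.48) between PBS and normal livers and by 1.11 (SE 0.48) between HepLPC and normal livers, in the same direction as Cyp7a1. Without PBS replicate 1 and HepLPC replicate 2 these values were 0.41 and 0.99. HepLPC and PBS livers differed by 0.17 (95% interval -0.91 to 1.25, limma adjusted p = 0.875), and leaving out single libraries gave -0.39 to 0.70.

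**Figure D3:**
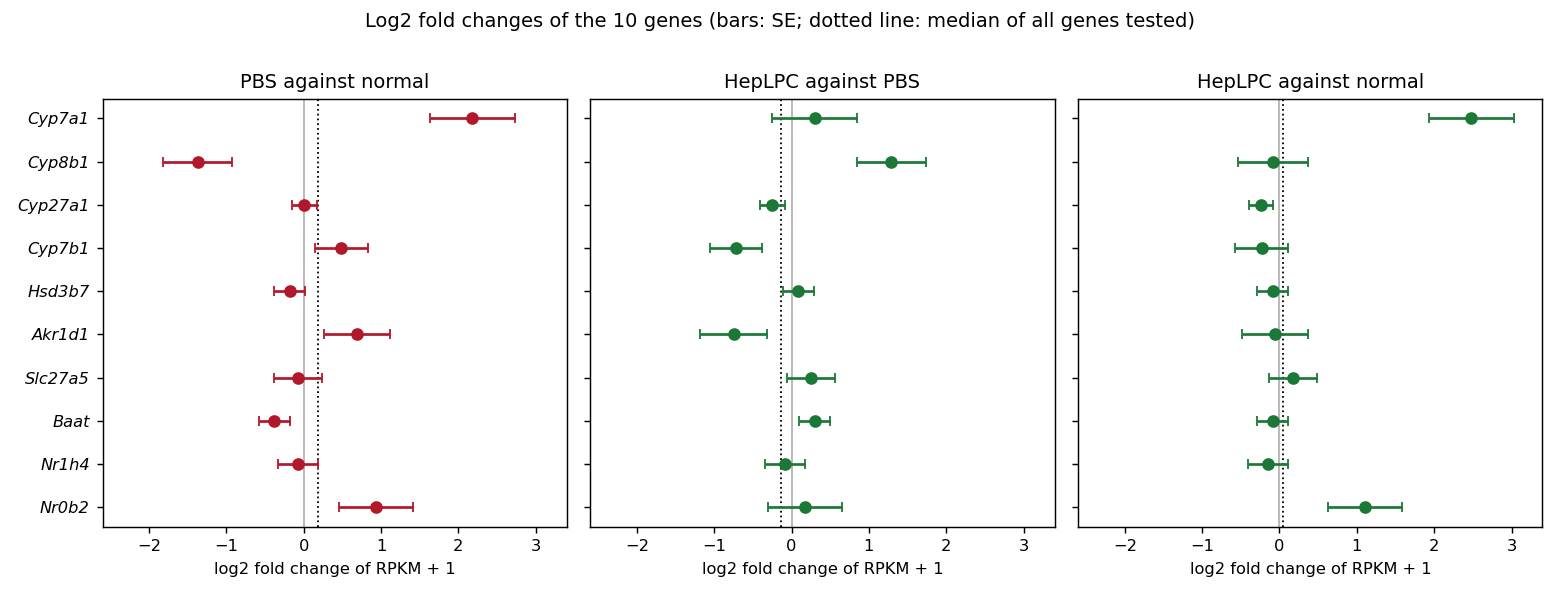
Log2 fold changes on log2(RPKM + 1) (horizontal axes) of the 10 genes (vertical axis) for PBS against normal, HepLPC against PBS and HepLPC against normal livers. Points are differences of group means, bars their SE, and dotted lines the median of all genes tested. Cyp7a1 stands at 2.18 and 2.48 against normal livers and at 0.30 between the cirrhotic groups, while Cyp8b1 stands at -1.37, 1.29 and -0.08.

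Counted together, none of the 10 passed between HepLPC and PBS livers, where limma called 3.07% of all genes. There were 0 calls with voom on the recovered reads as well, and 1 of the 10, Cyp8b1, had an unadjusted p under 0.05, against 16.1% of all genes. The median difference of the 10 was 0.13, beside -0.14 over all genes. The groups did not overlap for Cyp8b1, higher in HepLPC livers (2.79% of all genes did so), and for Cyp27a1, lower in them (15.6%), which makes 2 genes of 10 beside 18.4% of all genes tested.

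For the comparisons with normal livers the counts are descriptions that repeat the choice of the genes. Between PBS and normal livers 1 of the 10, Cyp7a1, met limma's call rule, beside 11.3% of all genes, and 2 had an unadjusted p under 0.05, beside 27.3%. The groups did not overlap for Cyp7a1, higher in PBS livers, and for Cyp8b1 and Baat, lower in them, 3 genes of 10 beside 37.7% of all genes (32.7% higher and 4.92% lower). Between HepLPC and normal livers 0 of the 10 met limma's call rule (0 with voom, 2 at an unadjusted p under 0.05, beside 9.31% of all genes), where limma called 0.0809% of all genes (0.0449% higher and 0.036% lower). Cyp7a1 and Nr0b2 were the 2 whose groups did not overlap, both higher in HepLPC livers, beside 15.8% of all genes (12.3% higher and 3.51% lower). The medians of the 10 were -0.03 for PBS and -0.08 for HepLPC livers against normal ones, and those of all genes 0.18 and 0.05. The 2 comparisons share the normal libraries.

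Most of the 10 genes were of high level and of wide spread within groups beside all genes tested. In normal livers 6 of the 10 lay at or above the 90th percentile of level among the genes tested, up to the 99.2nd for Baat, and Cyp7b1 lay at the 49.8th. For 9 of the 10 the spread within groups exceeded the median of all genes, and for Cyp7a1, Nr0b2, Cyp8b1, Akr1d1, Cyp7b1 and Slc27a5 it lay above the 90th percentile.

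The deviations of single libraries from their group mean, on the log2 scale, are set side by side for Cyp7a1 with Nr0b2 and for Akr1d1 with Cyp8b1. Each order rests on 3 libraries, and joint movement was not tested. In PBS replicates 1 to 3, Cyp7a1 deviated by 1.05, -1.04 and 0.00 and Nr0b2 by 1.06, -1.12 and 0.05, in the same order. In HepLPC livers the orders differed, with Cyp7a1 at 0.45, 0.16 and -0.61 and Nr0b2 at -0.33, 0.23 and 0.10, and in normal livers Cyp7a1 was at -0.93, 0.65 and 0.28 and Nr0b2 at 0.25, -0.62 and 0.37. Akr1d1 and Cyp8b1 had opposite orders in the PBS livers, with Akr1d1 at -0.71, -0.18 and 0.88 and Cyp8b1 at 0.66, 0.44 and -1.10. In the other groups they did not, with Akr1d1 at 0.17, -0.63 and 0.47 and Cyp8b1 at 0.34, -0.16 and -0.18 in HepLPC livers, and Akr1d1 at 0.58, -0.33 and -0.25 and Cyp8b1 at 0.57, 0.02 and -0.60 in normal livers.

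2 genes of fasting metabolism, chosen after their values were seen, are set beside Cyp7a1. Sds, serine dehydratase, stood at 55.2, 90.6 and 12.9 RPKM in HepLPC, 100.5, 11.8 and 24.8 RPKM in PBS and 2.91, 27.8 and 29.2 RPKM in normal replicates 1 to 3. Pck1, the gluconeogenic carboxykinase, deviated by 0.02, 0.63 and -0.66 in HepLPC, 0.79, -0.71 and -0.07 in PBS and -0.82, 0.35 and 0.47 in normal livers. PBS replicate 1 was highest and PBS replicate 2 lowest of its group for Cyp7a1, Sds and Pck1, and normal replicate 1 and HepLPC replicate 3 were the lowest of theirs. The hormone Fgf21, also a gene of fasting, had another order, at 4.24 RPKM in normal replicate 1 and 0.268 RPKM in PBS replicate 1. It deviated by 0.59, -0.32 and -0.27 in HepLPC, -0.35, 0.32 and 0.03 in PBS and 0.46, -0.43 and -0.03 in normal replicates 1 to 3. The part of feeding state in the Cyp7a1 values was not tested.

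**Figure D4:**
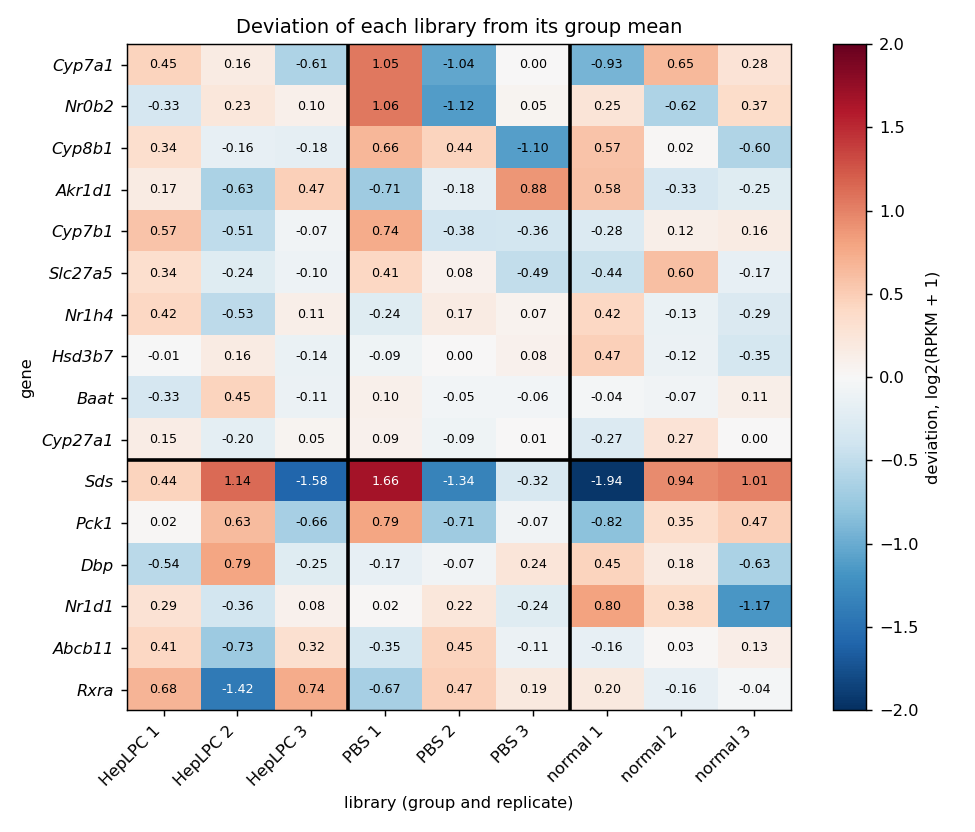
Deviation of each library (columns) from its group mean on log2(RPKM + 1) for the 10 genes (rows above the line) and 6 other genes of feeding, clock, transport and receptor function (rows below it), with red above and blue below the mean. PBS replicate 1 is high for Cyp7a1 (1.05), Nr0b2 (1.06), Sds (1.66) and Pck1 (0.79), and PBS replicate 2 is low for the same genes.

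Of 7 tested clock output factors known to act on Cyp7a1 none was called in any comparison (0 by limma and by voom in each). At an unadjusted p under 0.05 there were 2, 2 and 0 for PBS against normal, HepLPC against PBS and HepLPC against normal. The shares of all genes at that limit were 27.3%, 16.1% and 9.31%, and limma called 11.3%, 3.07% and 0.0809% of all genes. Dbp, an activator of Cyp7a1, was at 3.06, 9.21 and 3.98 RPKM in HepLPC, 3.28, 3.59 and 4.67 RPKM in PBS and 3.90, 3.07 and 1.32 RPKM in normal replicates 1 to 3. Nr1d1, a clock repressor, was at 9.46, 5.66 and 8.02 RPKM in HepLPC, 1.83, 2.24 and 1.35 RPKM in PBS and 10.2, 7.38 and 1.86 RPKM in normal replicates 1 to 3. It was lower in every PBS library than in every HepLPC library, without passing (HepLPC against PBS 1.62, SE 0.43, limma adjusted p = 0.0832), and the part of sampling time was not tested.

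Receptors and factors acting on Cyp7a1 numbered 16 tested of 20. Limma called 0 in PBS against normal livers (1 by voom) and 0 in HepLPC against normal livers (0 by voom), beside 11.3% and 0.0809% of all genes. At an unadjusted p under 0.05 there were 4 and 2, beside 27.3% and 9.31%. In HepLPC against PBS livers 1 fell, beside 2.93% of all genes: Nr1i3, the xenobiotic receptor CAR (-1.09, SE 0.21, limma adjusted p = 0.0251). Nr1i3 averaged 3.78 ± 0.822, 9.18 ± 1.96 and 7.29 ± 1.66 RPKM in HepLPC, PBS and normal livers (SD, n = 3 each). Every HepLPC library also lay below every normal one, without a call (-0.79, SE 0.21, limma adjusted p = 0.269). Hnf4a, an activator of bile acid genes, averaged 87.5 ± 16.0, 92.9 ± 9.86 and 80.6 ± 10.6 RPKM in HepLPC, PBS and normal livers (SD, n = 3 each). Fgfr4 averaged 7.79, 8.58 and 8.09 RPKM in the same order and Klb 4.14, 3.83 and 5.16 RPKM. LRH-1 (Nr5a2) averaged 7.29, 6.10 and 8.49 RPKM, each PBS library lying below each normal one without a call (PBS against normal -0.42, SE 0.15, limma adjusted p = 0.102). Rxra, the partner of FXR, was at 78.7, 17.6 and 82.0 RPKM in HepLPC and 38.4, 85.6 and 70.5 RPKM in PBS replicates 1 to 3, so the 2 libraries that stood apart were its lowest.

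Of 12 tested further enzymes of bile acid synthesis, 1 rose and 2 fell in PBS against normal livers, beside 10.4% and 0.944% of all genes. Por, the electron donor of microsomal P450s, rose (0.83, SE 0.18, limma adjusted p = 0.0172). The acyl-CoA synthetase Slc27a2 averaged 228 ± 13.0 RPKM in PBS and 374 ± 30.5 RPKM in normal livers (-0.71, limma adjusted p = 0.00719), and Cyp39a1, a 24-hydroxycholesterol 7-alpha-hydroxylase, also fell (-0.44, limma adjusted p = 0.0414). None of the 12 was called in HepLPC against PBS or normal livers (0 by limma and by voom in each). In HepLPC against PBS 2.93% of all genes were called lower and 0.135% higher. At an unadjusted p under 0.05 there were 3 and 2 of the 12, beside 16.1% and 9.31% of all genes.

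FXR targets were split in PBS against normal livers, with 2 of 9 tested higher and 3 lower by limma, beside 10.4% and 0.944% of all genes, and 3 of the 9 called by voom. Pltp, the phospholipid transfer protein, rose by 1.12 (limma adjusted p = 0.012) and the carboxylesterase Ces1d by 1.2 (limma adjusted p = 0.0382). The lipase activator Apoc2 fell by 1.08 (limma adjusted p = 0.0256) and the hormone Fgf21 by 1.24 (limma adjusted p = 0.0291), as did Insig2, a brake on cholesterol synthesis named after its values were seen, by 0.96 (limma adjusted p = 0.0494). In HepLPC livers 0 of the 9 were called against PBS or normal livers (limma and voom). At an unadjusted p under 0.05 there were 3 and 2, beside 16.1% and 9.31% of all genes. The bile salt export pump Abcb11, the classical FXR target, was at 144, 64.5 and 135 RPKM in HepLPC, 75.0, 131 and 88.6 RPKM in PBS and 124, 142 and 151 RPKM in normal replicates 1 to 3. HepLPC replicate 2 and PBS replicate 1 were again the lowest of their groups. Slc51b, a basolateral exporter that FXR induces in cholestasis, was at 0 in 7 of the 9 libraries and at most 0.11 RPKM.

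Among 9 tested bile acid transporters 2 rose in PBS against normal livers, beside 10.4% of all genes: Abcc3 (2.71, limma adjusted p = 0.000735) and Abcc4 (0.72, limma adjusted p = 0.0413). In HepLPC against PBS livers 1 fell, Abcc3, beside 2.93% of all genes. Limma and voom called 0 in HepLPC against normal livers, with 0 at an unadjusted p under 0.05. This basolateral exporter, also present in bile ducts, had 1.45, 0.37 and 1.41 RPKM in HepLPC and 5.87, 5.82 and 12.2 RPKM in PBS replicates 1 to 3, against 0.206, 0.377 and 0.326 RPKM in normal ones (HepLPC against PBS -2.09, SE 0.29, limma adjusted p = 0.00797). The duct markers given above moved the same way, and their part in the Abcc3 values was not tested. The uptake carrier Slc10a1 averaged 342 ± 20.6, 292 ± 63.2 and 370 ± 3.74 RPKM in HepLPC, PBS and normal livers (SD, n = 3 each), with no call.

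Zonation genes were set beside the members because Cyp7a1 is made mainly by hepatocytes near the central vein. Of 8 tested pericentral genes 2 rose in PBS against normal livers, Rhbg (2.41) and Slc1a2 (0.94), beside 10.4% of all genes. Voom called 2, and 4 had an unadjusted p under 0.05, among them Cyp2e1, which was lower, beside 27.3% of all genes. In HepLPC against normal livers 1 rose, Rhbg (1.86, limma adjusted p = 0.0464), beside 0.0449% of all genes, with 0 called by voom. There 7 of the 8 had an unadjusted p under 0.05, again with Cyp2e1, which was lower, among them, beside 9.31% of all genes. Between HepLPC and PBS livers 0 were called (limma and voom, 2 at an unadjusted p under 0.05, beside 16.1% of all genes). Glul, glutamine synthetase, named after its values were seen, averaged 118 ± 4.55 RPKM in HepLPC, 79.5 ± 14.9 RPKM in PBS and 68.3 ± 2.30 RPKM in normal livers (SD, n = 3 each), and each HepLPC library lay above each PBS library without a call (0.58, limma adjusted p = 0.0648). Cyp2e1, a pericentral P450 also named after its values were seen, went the other way without a call, at 1010 ± 137 RPKM in HepLPC, 1140 ± 86.5 RPKM in PBS and 1530 ± 282 RPKM in normal livers (SD, n = 3 each), with every HepLPC and every PBS library below every normal one (HepLPC against normal -0.59, limma adjusted p = 0.338, and PBS against normal -0.41, limma adjusted p = 0.173). Of 8 periportal genes 2 fell in PBS against normal livers, Hsd17b13 (-1.08) and Cyp2f4 (-0.62), beside 0.944% of all genes. In HepLPC against normal livers 0 were called (limma and voom, 1 at an unadjusted p under 0.05, beside 9.31% of all genes). Hsd17b13 rose in HepLPC against PBS livers (0.78, limma adjusted p = 0.0185), beside 0.135% of all genes.

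The genes with profiles most like those of Cyp7a1, Cyp8b1 and Nr0b2 were found by the root-mean-square difference of mean-centred log2(RPKM + 1) values over the 9 libraries. The 10015 tested genes ranked leave out symbols that begin with LOC, RGD, AABR or Rn or end in Rik. Rows with an Ensembl identifier alone stayed in. The 5 nearest to Cyp7a1 were Igha, Rhbg, Wfdc21, Mcpt2 and Noct, at 0.67 to 0.75 where the median gene stood at 1.29. Rhbg, an ammonium transporter, was at 4.70, 9.20 and 6.02 RPKM in HepLPC, 12.9, 6.88 and 10.6 RPKM in PBS and 0.871, 0.930 and 1.37 RPKM in normal replicates 1 to 3. Mcpt2 belongs to a family of near-identical proteases, so its reads may be shared. Those nearest to Cyp8b1 were a row with an Ensembl identifier alone, Tymp, Hal, Apom and Apoc2, at 0.34 to 0.46 against a median of 0.93. Hal, the histidine lyase of periportal hepatocytes, was at 88.8, 74.5 and 51.2 RPKM in HepLPC, 60.2, 37.6 and 31.5 RPKM in PBS and 109, 76.8 and 69.3 RPKM in normal replicates 1 to 3. Those nearest to Nr0b2 were Uchl3, an Ensembl row, Creld2, Ldhb and Smim11, at 0.42 to 0.47 against a median of 0.79.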

How the data were processed

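The deposited files hold 1 RPKM value per gene and library, as named in the file headers; the authors' values are per kilobase of gene model and per 1e6 reads. HISAT2, StringTie and hg19 are listed in the submitters' processing notes, while the rows carry rat symbols, so the build is uncertain; annotation and the handling of reads shared by paralogs are not given in the sources used here. Whole reads were recovered from the RPKM steps, within 0.002 read, for 20959 of 20959 genes above 0 in 3 or more libraries, and on simulated reads 1978 of 1984 genes came out exact. Intervals cover the spread between libraries.

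The 11124 genes that reached 1 RPKM in any 3 libraries were tested on log2(RPKM + 1) with limma 3.58.1 in R 4.3.3 (lmFit, eBayes with trend, 2-sided), with all 9 libraries in 1 fit and Benjamini-Hochberg adjustment over all genes, at 0.05. Such fold changes understate changes of low genes. The fit was tested on simulated data with known changes. In 17 alternatives the pseudocount, filter, scaling, fit or libraries were changed; voom was added after the data were seen. Members, the 15 gene lists and the naming rule (all members, centre genes of the axis, at most 4 called genes per list, 5 nearest profiles) were chosen with earlier results of these data known. The results of 1 of these lists are not reported here.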

Additional observations from a re-analysis of the deposited data

How the results depend on the processing

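None of the 10 genes was called between HepLPC and PBS livers, or between HepLPC and normal livers, under any of the 17 alternatives (0 in each). Between PBS and normal livers the member count of 1 became 0 without the filter, after rescaling by the median of ratios and after quantile normalization, 2 without both PBS replicate 1 and HepLPC replicate 2, and 0 to 2 with single libraries left out (0 without normal replicate 1, 2 or 3 or PBS replicate 1 or 3, and 2 without PBS replicate 2). The 2 called without both libraries were Cyp8b1 and Baat, lower in PBS livers, and Cyp7a1 was not called there. The 2 called without PBS replicate 2 were Cyp7a1 and Nr0b2, higher in PBS livers. These counts use the comparison behind the choice of the genes, and nothing is read from them. Over all genes, the 1262 calls for PBS against normal (1157 higher, 105 lower) became 782 after median-of-ratios rescaling (566 higher, 216 lower), 714 after quantile normalization (492 higher, 222 lower) and 3168 without both libraries, and 562 to 1809 without single libraries. The 341 calls for HepLPC against PBS (15 higher, 326 lower) became 204 after median-of-ratios rescaling (21 higher, 183 lower), 213 after quantile normalization (32 higher, 181 lower), 86 with only the 2 groups fitted and 90 to 398 without single libraries. The 9 for HepLPC against normal (5 higher, 4 lower) became 5 (1 higher, 4 lower) and 3 (0 higher, 3 lower) under the same rescalings, 0 without the filter, 0 with voom, 16 without both libraries and 1 to 14 without single libraries. The cause was not tested. Median-of-ratios rescaling set the median over all genes at -0.01 in place of 0.18 (PBS against normal) and at 0.01 in place of -0.14 (HepLPC against PBS).

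The deviations of same-numbered libraries had correlations of -0.412 to 0.31, over 0.1 in 3 of 9 pairs. Of 9 libraries 2 correlated best with their own number. The length trend of PBS replicate 1 and HepLPC replicate 2 enters these correlations, so they cannot settle whether the numbers pair the libraries. With a replicate block the all-gene counts were 787, 198 and 1. Among the 10 genes the count for PBS against normal was 1 with the block, a different gene (Cyp8b1 in place of Cyp7a1).

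Of 510 member fold changes under the alternatives 34 changed sign, none of them called. For PBS against normal, Cyp27a1 was at -0.23 rescaled, -0.03 quantile normalized and -0.03 without both libraries, and -0.13 to 0.14 without single libraries. Ranges without single libraries were -0.35 to 0.06 for Hsd3b7, -0.29 to 0.23 for Slc27a5 and -0.22 to 0.14 for Nr1h4, which was 0.04 without both. For HepLPC against PBS, Nr1h4 was at 0.10 rescaled, 0.04 quantile normalized and 0.07 without both (-0.29 to 0.19 without single libraries), Hsd3b7 at -0.04 without both (0.01 to 0.16 without single libraries), Cyp7a1 at -0.22 to 0.83 and Nr0b2 at -0.39 to 0.70. For HepLPC against normal, values without both were 0.01 for Cyp8b1, 0.03 for Cyp7b1, 0.26 for Akr1d1 and 0.11 for Nr1h4. Ranges without single libraries were -0.37 to 0.21 for Cyp8b1, -0.51 to 0.03 for Cyp7b1, -0.29 to 0.26 for Akr1d1, -0.27 to 0.15 for Hsd3b7, -0.31 to 0.08 for Baat, -0.04 to 0.48 for Slc27a5 and -0.36 to 0.11 for Nr1h4. Depth was lowest for Nr0b2 and Cyp7b1, at 77 and 126 reads in their lowest libraries.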
